A study of Mus musculus with 4 samples.

Results

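The 8 genes described here encode transcription factors that mark identity along the nephron, the filtering and reabsorbing tube of the kidney: Hnf4a, Pax2, Pax8, Foxi1, Tfap2b, Tfcp2l1, Gata3 and Pou3f3. They were chosen by symbol, and each symbol matched 1 of the 57132 genes in the files. The data are droplet single-cell RNA profiles of whole kidneys from 4 wild-type mice with contrast-induced acute kidney injury, kidney damage that follows a contrast agent used in imaging, and each mouse gave 1 library. All 4 mice belong to that 1 condition and to 1 labelled batch, so the comparisons lie between nephron segments and between proximal tubule cell states within each mouse, and no uninjured kidney was analysed here. The submitters describe the mice as separate biological replicates. The sources used here do not name the contrast agent, its dose, the time of collection or the strain, age and sex of the animals.

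Each segment of the nephron carries its own combination of transcription factors, and mouse deletions of several of these genes remove or mis-specify the segment in which they act. Hnf4a, a nuclear receptor, is required for maturation of the proximal tubule, Pax2 and Pax8 are paired-box factors that act together to form and maintain nephron epithelium, and Pou3f3 (Brn1) is required for the loop of Henle. Tfap2b (AP-2 beta) acts in the distal tubule, Gata3 in the nephric duct and the collecting system that grows from it, Tfcp2l1 in the collecting duct, and Foxi1, a forkhead factor, in the acid- and base-secreting intercalated cells. Loss of such identity factors and gain of Havcr1 (Kim-1), a membrane protein that injured proximal tubule cells make, are commonly looked for together after kidney injury.

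The files held 48213 cell barcodes with between 36831995 and 105436725 unique molecular identifiers (UMIs, each counting 1 captured RNA molecule) per library, and 40826 cells were kept. Of these, 6668 were assigned to 6 tubule segments from marker genes that did not include the 8 members: 2482 to the proximal tubule, 243 to the thin limb, 2035 to the thick ascending limb, 252 to the distal convoluted tubule, 1103 to the connecting tubule and principal cells and 553 to the intercalated cells. A further 517 podocytes and 345 cells with markers of the epithelium of Bowman's capsule were set apart. The names stand for clusters that carried at least 3 markers of a segment ("-like" classes), and 9.25% of the cells stayed unnamed. In mouse 3, acute-phase genes (Saa1, Fgb and Fga) were among the leading genes of 1 proximal tubule cluster, and interferon-induced genes (Mx1, Isg15 and Ifit3) among those of thick ascending limb clusters. Mouse 4 stood apart, with a median of 2077 UMIs per cell against 5549 to 5777 in the others, and with 13.7% ribosomal protein UMIs against 1.49 to 2.35%. Mice 1 and 2 shared 23 barcodes, mice 1 and 3 shared 42, and mice 2 and 3 shared 54. Mouse 4 shared 0, 1 and 0 with mice 1, 2 and 3. Whether its library was made in another way was not tested.

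Levels are given as CPM, the UMIs of a gene scaled to a fixed total of 1e6 UMIs, in the cells of 1 class and 1 mouse, wherever a mouse had at least 20 such cells. The distal convoluted tubule of mouse 3 had 18 cells and is not used, so that segment has n = 3 and the others n = 4. Each segment was tested with edgeR's quasi-likelihood test, with the mouse as a block, as the log2 level in that segment minus the mean of the log2 levels in the other 5. A call is an adjusted p under 0.05 over all 12164 genes tested, and because segments differ widely, calls were common for any gene. In the proximal tubule 7 of 8 members were called, 2 higher and 5 lower, where 46.1% of all genes tested were called. In the thin limb 5 members were called, 2 higher and 3 lower, beside 31.8% of all genes. In the thick ascending limb 4 were called, 2 higher and 2 lower, beside 24.4%. In the distal convoluted tubule 4 were called, 3 higher and 1 lower, beside 24.1%. In the connecting tubule and principal cells 5 were called, all higher, beside 23.7%. In the intercalated cells 4 were called, 3 higher and 1 lower, beside 26.8%.

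**Figure D1:**
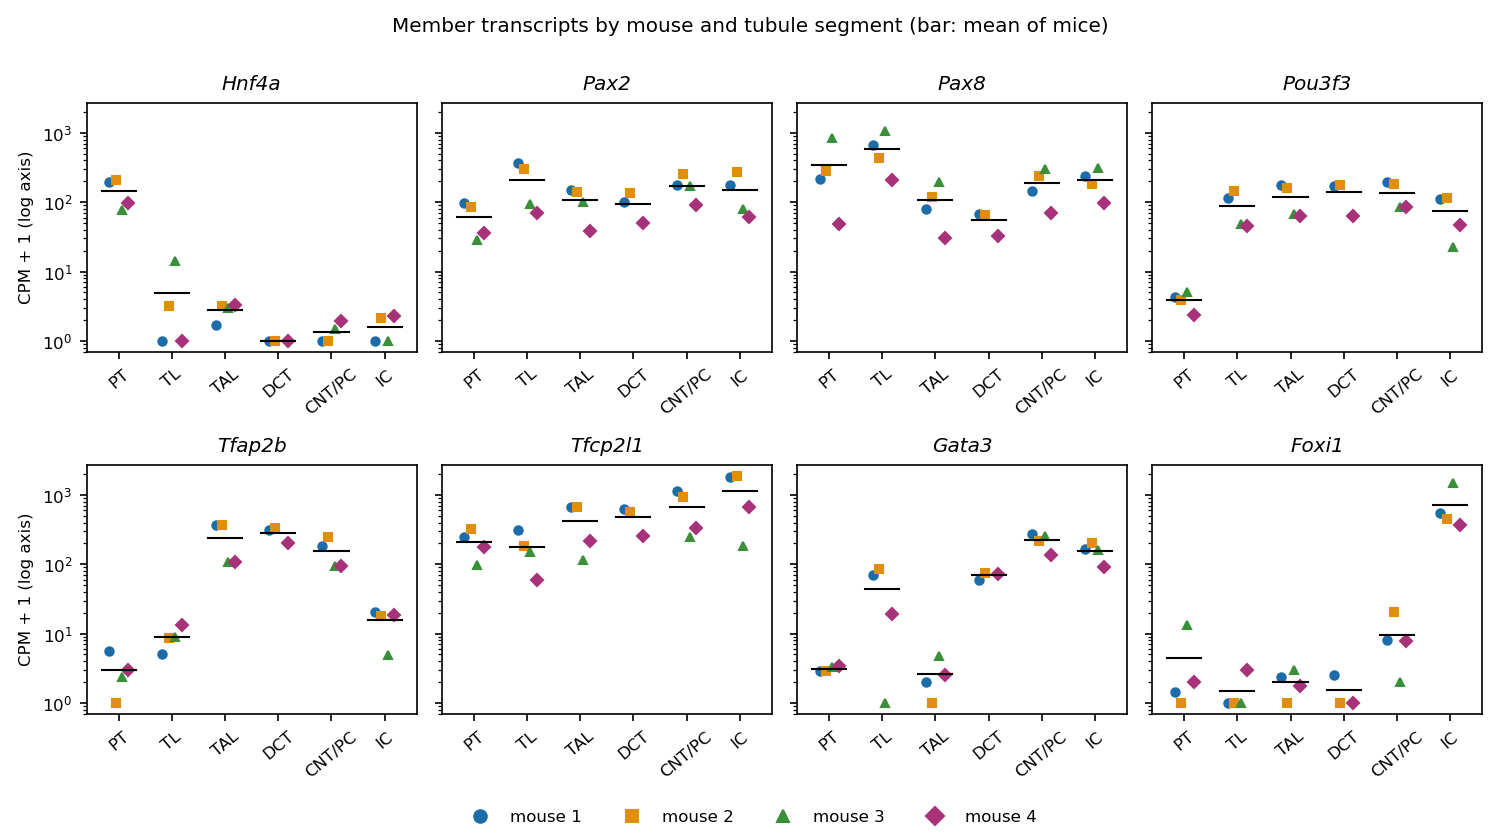
Level of each member (CPM + 1, log axis) in the proximal tubule (PT), thin limb (TL), thick ascending limb (TAL), distal convoluted tubule (DCT), connecting tubule and principal cells (CNT/PC) and intercalated cells (IC); each point is 1 mouse and each bar the mean. Hnf4a was highest in the proximal tubule (75.1 to 209 CPM) and Foxi1 in the intercalated cells (363 to 1496 CPM), while Pax2 and Pax8 were present in all 6 tubule segments.

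**Figure D2:**
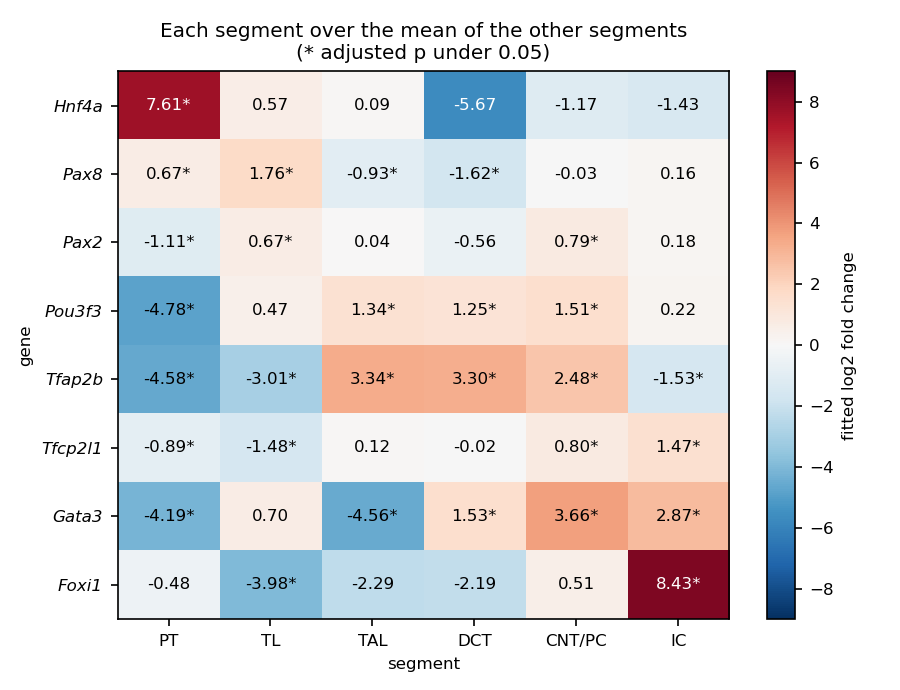
Log2 fold change of each member in each segment against the mean of the other 5 segments, with a star where the adjusted p was under 0.05. The largest values are 7.61 for Hnf4a in the proximal tubule and 8.43 for Foxi1 in the intercalated cells. With no Hnf4a UMI in the distal convoluted tubule, its value there (-5.67) is no bound, nor is the 7.61 fitted partly against it.

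Hnf4a was a proximal tubule transcript in every mouse. It had 194, 209, 75.1 and 96.6 CPM in the proximal tubules of mice 1 to 4, against 0 to 13.1 CPM in the thin limb, 0.684 to 2.34 CPM in the thick ascending limb and 0 to 1.27 CPM in the segments further along. No other tubule segment of any mouse reached the lowest proximal tubule value. The proximal tubule mean was 144 ± 67.6 CPM (SD, n = 4), 7.61 on the log2 scale above the mean of the other segments (SE 0.34, adjusted p = 1.28e-14, higher in 4 of 4 mice). Summed over mice, the level was 42.9 times that of the thin limb, the next segment down (95% counting interval 20.8 to 107, from 1256 and 7 UMIs), and this step was called (log2 5.86, adjusted p = 1.75e-08). The distal convoluted tubule had no Hnf4a UMI in 3 mice, which allows up to 2.35, 4.46 and 13.6 CPM in mice 1, 2 and 4, and the proximal tubule was at least 85.8-fold higher with 3 UMIs over the group as the floor. The log2 of 7.61 is fitted partly against that empty segment and is no bound. None of the steps among the remaining segments was called. The capsule epithelium, which is continuous with the proximal tubule, also held Hnf4a, at 45.2, 47.0, 20.8 and 87.0 CPM, and the proximal tubule was 3.15 times higher than it (2.68 to 3.73). A Hnf4a UMI was found in 36.5% of proximal tubule cells on average over mice, or 13.8% after every cell was thinned to 1000 UMIs, against 0.806% and 0.101% of neutrophils, which should lack it (mean of median depths 3475 and 4552 UMIs). Hnf4aos, transcribed next to Hnf4a on the opposite strand, had 46.7 ± 38.8 CPM in the proximal tubule, and because the strand of counting is not stated, reads of the pair may not be fully separated.

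Because Hnf4a and a large set of genes were high in the same segment, the letters of the site its protein family binds were looked for in promoters, and the sequences are shown to let the match be read in place. The motif searched was CAAAGTCCA, or TGGACTTTG on the other strand, in RefSeq promoters of build GRCm38.p6, each 250 bases before to 50 after a start. It was present in 19 of 1644 promoters of genes higher in the proximal tubule (adjusted p under 0.05 and log2 fold change of at least 1), or 1.16%, against 0.376% of the 11980 promoters of all genes tested and 0.475% of all 32851 promoters. Promoters of genes higher in the other 5 segments held it in 0.093 to 0.475%. A gene with several starts counts more than once: the 1644 promoters belonged to 1261 genes and the 11980 to 9295 genes. Median GC content was 58.7% in the proximal tubule set, 60.7% over all genes tested and 52.7% over all promoters. The 250 bases before the start are printed for 3 proximal tubule genes that hold the letters, in capitals, and for both RefSeq starts of Hnf4a, which do not hold them. Aspdh (aspartate dehydrogenase domain) averaged 25.1 ± 11.1 CPM in the proximal tubule, Agxt2 (an aminotransferase) 31.2 ± 10.8 CPM and Treh (trehalase) 15.1 ± 7.1 CPM (SD, n = 4 each), and none exceeded 0.656 CPM on average in another segment. Their log2 fold changes in the proximal tubule (6.61, 6.58 and 6.18) were high among the genes with the letters. Their coordinates are chr7:44465185-44465434, chr15:10358283-10358532 and chr9:44672983-44673232, and those of Hnf4a are chr2:163506607-163506856 and chr2:163546905-163547154, all on the plus strand.
Aspdh: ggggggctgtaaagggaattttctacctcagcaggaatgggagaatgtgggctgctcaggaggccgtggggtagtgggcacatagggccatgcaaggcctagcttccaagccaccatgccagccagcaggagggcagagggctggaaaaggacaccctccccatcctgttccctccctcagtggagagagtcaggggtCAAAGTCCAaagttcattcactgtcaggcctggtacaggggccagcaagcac
Agxt2: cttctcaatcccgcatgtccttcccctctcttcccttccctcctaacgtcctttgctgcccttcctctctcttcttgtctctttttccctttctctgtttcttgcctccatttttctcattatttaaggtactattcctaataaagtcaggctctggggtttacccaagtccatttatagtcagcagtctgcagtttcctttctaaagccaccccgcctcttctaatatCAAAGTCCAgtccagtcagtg
Treh: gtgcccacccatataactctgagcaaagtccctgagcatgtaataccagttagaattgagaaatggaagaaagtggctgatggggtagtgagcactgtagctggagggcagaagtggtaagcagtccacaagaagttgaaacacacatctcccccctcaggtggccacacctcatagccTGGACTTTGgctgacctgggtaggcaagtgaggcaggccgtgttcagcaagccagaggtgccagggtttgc
Hnf4a, first start: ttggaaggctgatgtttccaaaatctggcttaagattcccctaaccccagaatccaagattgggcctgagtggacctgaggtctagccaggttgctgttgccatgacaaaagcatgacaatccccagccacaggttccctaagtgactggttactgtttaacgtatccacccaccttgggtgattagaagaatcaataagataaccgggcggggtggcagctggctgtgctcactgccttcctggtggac
Hnf4a, second start: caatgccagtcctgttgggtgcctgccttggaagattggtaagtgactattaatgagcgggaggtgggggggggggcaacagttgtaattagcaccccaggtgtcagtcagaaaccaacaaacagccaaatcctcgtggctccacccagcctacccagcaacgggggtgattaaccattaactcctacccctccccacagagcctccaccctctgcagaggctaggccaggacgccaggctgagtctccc

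The letters begin 52 bases before the start in Aspdh, 21 in Agxt2 and 71 in Treh, where they run on the other strand. The HNF1 letters GTTAATNAT or ATNATTAAC were in 1.22% of the proximal tubule set, 0.476% of all genes tested and 0.801% of all promoters, with 0.475 to 1.05% in the other sets, the highest in the connecting tubule and principal cells. Letters of the other families were searched in the sets of the segments where their members are high. The forkhead letters TGTTTAC or GTAAACA were in 3.14% of promoters of genes higher in intercalated cells and 2.64% of all genes tested (3.65% of all promoters), with 2.09 to 3.49% in the other 5 segments' sets, the highest in the distal convoluted tubule. The GATA letters AGATAAG or CTTATCT were in 2.27% of the connecting tubule and principal cell set, 1.73% of all genes tested and 3.04% of all promoters, with 1.28 to 2.80% in the other sets, the highest in the thin limb. The AP-2 letters GCCNNNGGC, which read the same on both strands, were in 23.0% of the thick ascending limb set, 24.5% of all genes tested and 16.6% of all promoters, with 23.3 to 25.7% in the other sets. The TFCP2L1 letters CCNGNNNNNNCCNG or CNGGNNNNNNCNGG were in 41.9% of the intercalated cell set, 42.4% of all genes tested and 29.5% of all promoters, with 40.8 to 45.7% in the other sets. These are matches of letters in a short window and say nothing of binding.

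Pax2 and Pax8 were present along the whole tubule, as was Tfcp2l1, with different orders of segments. Pax8 was highest in the thin limb, at 657, 438, 1056 and 207 CPM in mice 1 to 4, followed by the proximal tubule at 216, 279, 831 and 47.8 CPM. The distal convoluted tubule had the lowest mean, at 65.9, 64.0 and 31.6 CPM in mice 1, 2 and 4, although in mouse 4 the thick ascending limb was lower (29.6 CPM). In each mouse the thin limb lay above the proximal tubule, although the ranges over mice overlap widely. The thin limb averaged 589 ± 361 CPM (SD, n = 4), a log2 difference of 1.76 from the other segments (SE 0.18, adjusted p = 5.06e-08), and the step down to the proximal tubule was called (log2 0.91, adjusted p = 0.0048). The distal convoluted tubule (log2 -1.62, adjusted p = 0.00019) and the thick ascending limb (log2 -0.93, adjusted p = 0.0018) were lower than the other segments. The first of these calls was lost in thinned cells (log2 -1.02, adjusted p = 0.071) and the second without the mouse as a block (log2 -0.83, adjusted p = 0.47). The proximal tubule was called higher (log2 0.67, adjusted p = 0.0055), but not without mouse 3 (log2 0.34, adjusted p = 0.12), whose proximal tubule held 3665 of the 4568 Pax8 UMIs. In the order of levels the only other step called was that between the connecting tubule and principal cells and the thick ascending limb (log2 0.75, adjusted p = 0.038).

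Pax2 ran from 368, 298, 94.5 and 68.8 CPM in the thin limb through 179, 250, 169 and 88.8 CPM in the connecting tubule and principal cells to 96.3, 83.9, 27.7 and 35.2 CPM in the proximal tubule. The ranges of its 6 segments over mice overlapped, and no step between neighbours in the order was called. Against the mean of the others, Pax2 was lower in the proximal tubule (log2 -1.11, SE 0.22, adjusted p = 0.00015) and higher in the connecting tubule and principal cells (log2 0.79, SE 0.20, adjusted p = 0.0041), the second of which was lost without the mouse as a block (log2 0.60, adjusted p = 0.39). It was also called higher in the thin limb (log2 0.67, adjusted p = 0.013), a call lost without mouse 1 (adjusted p = 0.25) or mouse 2 (adjusted p = 0.057). Podocytes had no Pax2 UMI in any of the 4 mice, which allows up to 1.44 to 15.2 CPM, and 14.4 to 42.2 CPM of Pax8. The capsule epithelium held both, at 148, 133, 116 and 92.5 CPM of Pax2 and 634, 463, 775 and 209 CPM of Pax8. The Pax8 share of the summed Pax2 and Pax8 UMIs, which compares segments and not the levels of the 2 genes, spanned 57.6 to 96.8% over mice in the proximal tubule and 32.1 to 40.2% in the distal convoluted tubule. A Pax8 UMI was found in 73.4% of thin limb cells on average (40.6% thinned; mean of median depths 10959 UMIs) and a Pax2 UMI in 55.4% (14.4% thinned), against 1.54% (0.121%) and 0.494% (0.081%) of neutrophils (4552 UMIs).

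Foxi1 was concentrated in the intercalated cells, at 553, 443, 1496 and 363 CPM in mice 1 to 4. The connecting tubule and principal cells, which share the collecting duct with them, had 7.14, 19.2, 1.01 and 6.70 CPM. Every intercalated cell value exceeded every value of the other segments. The intercalated mean of 714 ± 528 CPM (SD, n = 4) was 8.43 on the log2 scale above the other segments (SE 0.35, adjusted p = 2.56e-15, higher in 4 of 4 mice) and 95.3 times the level of the connecting tubule and principal cells over summed UMIs (71.9 to 129). The step between these neighbours was the only one called in its order (log2 6.60, adjusted p = 4.27e-09). Capsule epithelium had no Foxi1 UMI in any mouse, and intercalated cells were at least 804-fold higher with 3 UMIs over the group as the floor. The thin limb was called lower (log2 -3.98, adjusted p = 0.044) on 1 UMI, and 9 of the alternative fits lost that call. A Foxi1 UMI was found in 79.2% of intercalated cells on average (36.6% thinned; mean of median depths 13829 UMIs), against 0.466% (0.045%) of neutrophils.

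The proximal tubule held 58 Foxi1 UMIs, and 53 of them lay in 3 cells of mouse 3 with 23, 19 and 11 UMIs. Those 3 cells had 17801, 19653 and 17890 UMIs in all, no Hnf4a UMI, and 6, 4 and 2 UMIs of Atp6v1g3 and 1, 1 and 3 of Atp6v0d2, proton pump subunits of intercalated cells. Their doublet scores were 0.0737, 0.112 and 0.130, and whether they are mixed droplets was not tested. Without mouse 3, Foxi1 was lower in the proximal tubule (log2 -2.53, adjusted p = 0.015) and higher in the connecting tubule and principal cells (log2 1.61, adjusted p = 0.0086), neither of which was called with all mice.

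Tfap2b and Pou3f3 marked the stretch from the thick ascending limb to the collecting duct and were nearly absent from the proximal tubule. Tfap2b had 363, 373, 109 and 108 CPM in the thick ascending limb of mice 1 to 4, 310, 330 and 203 CPM in the distal convoluted tubule of mice 1, 2 and 4, and 181, 250, 94.2 and 94.6 CPM in the connecting tubule and principal cells. Its intercalated cells had 19.2, 17.1, 3.91 and 17.7 CPM, its thin limb 4.06 to 12.2 CPM and its proximal tubule 0 to 4.61 CPM. The first 3 of these segments do not overlap the last 3 in any mouse. Against the others Tfap2b was higher in the thick ascending limb (log2 3.34, SE 0.20, adjusted p = 3.54e-12), the distal convoluted tubule (log2 3.30, SE 0.24, adjusted p = 2.34e-10) and the connecting tubule and principal cells (log2 2.48, SE 0.23, adjusted p = 5.57e-09). It was lower in the proximal tubule (log2 -4.58), the thin limb (log2 -3.01) and the intercalated cells (log2 -1.53, adjusted p = 0.00047), of which the last 2 were lost in thinned cells (adjusted p = 0.053 and 0.065). In its order the only step called was that between the connecting tubule and principal cells and the intercalated cells (log2 3.35, adjusted p = 4.69e-08), so within the collecting duct Tfap2b separated the 2 neighbouring cell types. A Tfap2b UMI was found in 65.2% of distal convoluted tubule cells on average (21.4% thinned; mean of median depths 7368 UMIs) and in 47.1% of thick ascending limb cells (19.1% thinned), against 0.493% (0.072%) of neutrophils.

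Pou3f3 extended further, into the thin limb and the intercalated cells. It had 192, 179, 85.0 and 85.3 CPM in the connecting tubule and principal cells, 171, 179 and 63.3 CPM in the distal convoluted tubule, 178, 160, 65.8 and 62.3 CPM in the thick ascending limb and 114, 146, 47.3 and 44.5 CPM in the thin limb. Intercalated cells had 110, 114, 21.5 and 45.6 CPM, and the proximal tubule only 1.36 to 4.08 CPM. The 3 segments at the top could not be told apart by their steps, while the steps to the thin limb (log2 0.73, adjusted p = 0.015) and between the intercalated cells and the proximal tubule (log2 4.17, adjusted p = 2.68e-11) were called. Against the others Pou3f3 was higher in the connecting tubule and principal cells (log2 1.51, adjusted p = 1.37e-07), the thick ascending limb (log2 1.34, adjusted p = 4.40e-07) and the distal convoluted tubule (log2 1.25, adjusted p = 6.12e-05), and lower in the proximal tubule (log2 -4.78, SE 0.27, adjusted p = 1.21e-13, lower in 4 of 4 mice). A Pou3f3 UMI was found in 47.2% of connecting tubule and principal cells (10.1% thinned; mean of median depths 6669 UMIs), against 0.244% (0.046%) of neutrophils. Pantr1, a noncoding RNA next to Pou3f3, had 51.6 ± 32.6 CPM in the thick ascending limb, and the strand of counting is not stated.

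Tfcp2l1 had its highest mean in the intercalated cells. They had 1793, 1861, 180 and 670 CPM in mice 1 to 4, the connecting tubule and principal cells 1126, 936, 245 and 330 CPM, and the distal convoluted tubule 630, 561 and 253 CPM. The thick ascending limb followed with 662, 663, 116 and 215 CPM, the proximal tubule with 243, 325, 95.7 and 179 CPM and the thin limb with 313, 183, 147 and 58.7 CPM. Mouse 3 did not share the peak, since its intercalated cells lay below its connecting tubule and principal cells. Tfcp2l1 was called higher in the intercalated cells (mean 1126 ± 834 CPM, n = 4; log2 1.47, SE 0.23, adjusted p = 1.76e-05) and lower in the thin limb (log2 -1.48, SE 0.30, adjusted p = 0.00043). Its call in the connecting tubule and principal cells (log2 0.80, adjusted p = 0.015) was lost without mouse 1, 2 or 4 (adjusted p = 0.12, 0.065 and 0.057), and its lower level in the proximal tubule (log2 -0.89, adjusted p = 0.0080) was lost without mouse 1 (adjusted p = 0.11). Of the steps in its order only that between the thick ascending limb and the proximal tubule was called (log2 0.84, adjusted p = 0.037). A Tfcp2l1 UMI was found in 87.8% of intercalated cells on average (57.3% thinned), against 2.81% (0.722%) of neutrophils.

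Gata3 marked the collecting system. It had 269, 218, 258 and 133 CPM in the connecting tubule and principal cells of mice 1 to 4, 164, 201, 160 and 90.4 CPM in the intercalated cells and 58.1, 74.4 and 72.3 CPM in the distal convoluted tubule. The proximal tubule had 1.84 to 2.37 CPM and the thick ascending limb 0 to 3.73 CPM. Each of these 3 distal segments lay above both in every mouse measured. Gata3 was called higher in the connecting tubule and principal cells (mean 220 ± 61.6 CPM; log2 3.66, SE 0.28, adjusted p = 3.06e-10), in the intercalated cells (log2 2.87, SE 0.28, adjusted p = 1.94e-08) and in the distal convoluted tubule (log2 1.53, SE 0.40, adjusted p = 0.0065). It was called lower in the thick ascending limb (log2 -4.56, adjusted p = 1.23e-07) and the proximal tubule (log2 -4.19, adjusted p = 1.25e-07). The call in the distal convoluted tubule was lost without mouse 1, 2 or 4 (adjusted p = 0.056 to 0.063), each of which leaves that segment with 2 mice. The step between its highest segments, the connecting tubule and principal cells and the intercalated cells, was not called (log2 0.66, SE 0.36, adjusted p = 0.21), and the first step called in the order was that between the thin limb and the proximal tubule (log2 4.08, adjusted p = 3.21e-06). A Gata3 UMI was found in 52.3% of connecting tubule and principal cells (17.3% thinned), against 0.629% (0.238%) of neutrophils.

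The thin limb was uneven in Gata3, at 69.1, 84.0, 0 and 18.2 CPM in mice 1 to 4, and in mice 1 and 2 its UMIs came from a few cells. A finer clustering set apart 32 of its 243 cells, led by Slc14a2 (a urea transporter of the inner medulla), Frmpd4 and Wnt7b. In mice 1, 2 and 4 those cells, 13, 10 and 9 of them, had 174, 195 and 219 CPM of Gata3, against 0, 1.90 and 12.5 CPM in the other thin limb cells of the same mice, and mouse 3 had none of them. They held all 51 Gata3 UMIs of the thin limb of mouse 1 and 76 of the 77 of mouse 2, but 3 of the 9 of mouse 4, whose 9 cells were shallow (median 1224 UMIs). Summed markers of principal cells were also higher in them, at 5106, 3536 and 1967 CPM against 554, 377 and 369 CPM. Pax8 was lower in them in mice 1 and 2, at 342 and 244 CPM against 863 and 582 CPM, as were Tfcp2l1 (99.1 and 97.6 CPM against 453 and 246 CPM) and Pou3f3 (41.0 and 54.0 CPM against 161 and 214 CPM). In mouse 4 these cells held 13 Pax8 UMIs (947 against 185 CPM), 1 of Tfcp2l1 and none of Pou3f3. The groups were chosen after the clusters were seen and no test was made between them. With these cells left out, Gata3 in the thin limb moved to a log2 of -2.80 (adjusted p = 0.00081), against 0.70 (adjusted p = 0.15) with them, and its value in the distal convoluted tubule to 2.37 (adjusted p = 1.69e-05). Steps between segments, among them the called Gata3 step from the thin limb to the proximal tubule, were not fitted again without these cells.

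Gata3 was also present outside the nephron, and is known for its role in T lymphocytes and innate lymphoid cells. T lymphocytes had 87.6, 90.6, 58.8 and 57.2 CPM in mice 1 to 4, and fibroblasts and mural cells 127, 117, 67.1 and 0 CPM. A small unnamed cluster led by Il1rl1, the receptor of interleukin-33, had 890 CPM in mouse 3 (28 cells) and 606 CPM in mouse 4 (166 cells), above every nephron class. Unnamed epithelial clusters led by Upk3a, a gene of the urothelium, and by Reg3g had 171 CPM in mouse 4 and 169 CPM in mouse 3.

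**Figure D3:**
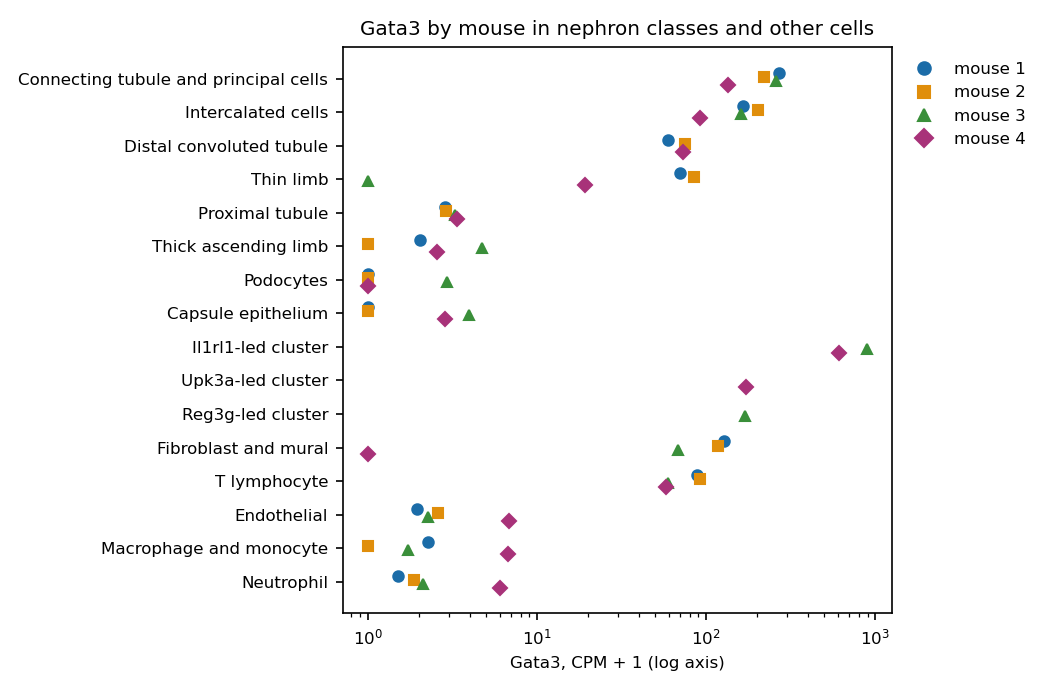
Gata3 level (CPM + 1, log axis) in 16 classes of cells, with a point for each mouse that had at least 20 cells of the class. The Il1rl1-led cluster (890 and 606 CPM) lies highest, above the connecting tubule and principal cells (133 to 269 CPM), while the proximal tubule (1.84 to 2.37 CPM) and the thick ascending limb (0 to 3.73 CPM) lie near the left edge.

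Pairs of segments show how far the 8 genes tell neighbours apart, each against the share of all 12164 genes called in the same pair. The thick ascending limb and the distal convoluted tubule, which follow each other, differed in 1 member (Gata3, log2 -5.08, lower in the thick ascending limb), where 12.6% of all genes were called. The thin limb differed from the connecting tubule and principal cells in 5 members (Pax8 higher and 4 lower, 16.2% of all genes). From the thick ascending limb it differed in 5 (Pax8 and Gata3 higher, 32.6%). Most Gata3 UMIs of the thin limb in mice 1 and 2 lay in its Slc14a2-led cells, and pairs were not fitted without those cells. Between the connecting tubule and principal cells and the intercalated cells 3 members differed (22.6%): Tfap2b (log2 3.34) and Pou3f3 (log2 1.08) were higher and Foxi1 (log2 -6.60) lower in the connecting tubule and principal cells. The distal convoluted tubule had 3 members lower than the connecting tubule and principal cells (Gata3, Pax8 and Pax2; 25.1%). Against the intercalated cells it had Tfap2b and Pou3f3 higher and 3 members lower (24.9%). The thick ascending limb had 3 members lower than the connecting tubule and principal cells (24.1%), Gata3 by the most (log2 -6.85). It differed from the intercalated cells in 6 members (2 higher, 4 lower; 28.5%).

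Against the mean of the others, the proximal tubule had the most calls (46.1% of genes, 7 of 8 members), but not in every pair. It differed in 7 members from the intercalated cells (Hnf4a higher, 6 lower; 42.9% of all genes), in 6 from the connecting tubule and principal cells (Hnf4a higher, 5 lower; 45.2%) and in 6 from the thick ascending limb (Hnf4a and Pax8 higher, 4 lower; 41.7%). It differed in 5 from the distal convoluted tubule (Hnf4a and Pax8 higher, 3 lower; 33.6%) and in 5 from the thin limb (Hnf4a higher, 4 lower; 43.1%). The thin limb differed from the distal convoluted tubule in 4 members (Pax8 and Pax2 higher, Tfap2b and Tfcp2l1 lower; 33.7%) and from the intercalated cells in 4 (Pax8 higher, 3 lower; 26.6%).

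Of 29 other nephron transcription factors on a list, 27 had enough UMIs to be tested between segments. The list was chosen with earlier results of these data known, so its counts are description only. Of all genes tested, 46.1% were called in the proximal tubule, 24.4% in the thick ascending limb and 24.1% in the distal convoluted tubule. In the proximal tubule all 5 factors listed as proximal were higher (median log2 4.99), among them Nr1h4 (the bile acid receptor FXR, 243 ± 84.7 CPM, log2 5.73) and Hnf4g (124.8 ± 96.4 CPM, log2 5.82). There 7 of 8 factors listed for the collecting system were lower (median log2 -4.40), with Grhl2 at -6.92 and Ehf at -5.81. Over all 27, 9 were higher and 12 lower in that segment. In the thick ascending limb 5 of 10 loop and distal factors were higher and 1 lower (median log2 1.53), led by Irx2 (127.0 ± 41.7 CPM, log2 7.48) and Irx1 (133.2 ± 31.9 CPM, log2 6.43), with Esrrb at log2 3.81, and Lhx1 was lower (log2 -3.54). In the distal convoluted tubule 6 of the 10 were higher and 3 lower (median log2 2.38). Emx1 (136.9 ± 20.9 CPM, log2 6.01), Sall3 (56.2 ± 21.5 CPM, log2 5.19) and Prox1 (41.1 ± 24.3 CPM, log2 4.51) led there, and Irx2, with no UMI in that segment, was called lower.

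Of all genes tested, 23.7% were called in the connecting tubule and principal cells, 26.8% in the intercalated cells and 31.8% in the thin limb. In the connecting tubule and principal cells all 8 collecting system factors were higher (median log2 2.14), with Elf5 (28.8 ± 21.6 CPM, log2 6.05) and Ehf (421 ± 119 CPM, log2 3.12) among them. Emx1 (log2 4.90) was higher too and Prox1 (log2 -3.38) lower. In the intercalated cells Hmx2 (129.9 ± 72.0 CPM, log2 9.70) and Dmrt2 (166.8 ± 121 CPM, log2 9.22) were higher, against no more than 1.45 CPM on average in any other segment, and 5 of 8 collecting system factors were higher. Irx1 (log2 -4.58) and Nr1h4 (log2 -4.15) were lower in intercalated cells. In the thin limb 5 collecting system factors were higher and 2 lower (median log2 1.40), with Elf5 at log2 5.31 and 21.2 ± 20.1 CPM, Irx2 at log2 5.92, Emx1 at -6.98 with no UMI there and Lhx1 at -4.75. Principal cell markers summed to 2357, 1718, 76.2 and 413 CPM in the thin limb of mice 1 to 4, and their part in the Elf5 value was not tested. A log2 value fitted against segments with no UMI of the gene is no bound. Hmx2 had none in the proximal tubule, thin limb, thick ascending limb and distal convoluted tubule. Dmrt2 had none in the thin limb and distal convoluted tubule, and Elf5 none in the proximal tubule, thick ascending limb and distal convoluted tubule. Irx2 had none in the distal convoluted tubule and Emx1 none in the thin limb.

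Genes whose levels ran most like those of each member were ranked by Pearson's r of log2(CPM + 1) over the 31 sums of 1 mouse and 1 of 8 nephron classes, sums that share libraries and are not independent. For Hnf4a they were Acnat2 (0.964), Qprt (0.958) and Prodh2 (0.956), enzymes of acyl group, quinolinate and hydroxyproline metabolism. Foxi1 ran most like Aqp6 (0.931), Gm47795 (0.910) and Dmrt2 (0.908). Of these Aqp6, an intercalated cell water channel, was also a marker used to name the intercalated cells. Tfap2b ran most like Lnx1 (0.926) and the potassium channel genes Kcnj1 (0.916) and Kcnj10 (0.915), of which Kcnj1 was also a marker used to name the thick ascending limb. Gata3 ran most like Scnn1b (0.931), a subunit of the epithelial sodium channel and a marker used to name principal cells, Tfap2a (0.904) and Tbc1d2 (0.886). Pou3f3 ran most like Sim1 (0.969), Cldn8 (0.946), a tight junction gene, and Esrp1 (0.946), a splicing factor of epithelia. Pax2 ran most like Ptprf (0.960), Lmo7 (0.960) and Nfib (0.949). Tfcp2l1 ran most like Epb41l1, Rbm47 and Sh3gl2 (0.905 each), and Pax8 like Usp43 (0.899), Nfkbiz (0.876) and Adss2 (0.858). Among the members themselves Pax2 with Tfcp2l1 (r = 0.84) and Tfap2b with Pou3f3 (r = 0.82) were the closest pairs, and Hnf4a with Pou3f3 (r = -0.58) the most opposed.

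Proximal tubule cells were divided by whether a Havcr1 UMI was detected, which held for 57 of 369 cells in mouse 1, 38 of 172 in mouse 2, 288 of 745 in mouse 3 and 60 of 1196 in mouse 4. Detection rises with depth, and the median UMIs per cell were 7467, 8378, 5981 and 3973 in Havcr1-detected cells, against 3263, 3986, 2608 and 1710 in Havcr1-undetected cells. In these states Hnf4a was lower and Pax8 higher in the Havcr1-detected cells of all 4 mice. Hnf4a had 147, 186, 52.5 and 73.3 CPM in Havcr1-detected cells of mice 1 to 4, against 211, 220, 98.6 and 98.8 CPM in Havcr1-undetected cells. The paired log2 difference was -0.69 (SE 0.17, edgeR's quasi-likelihood test with the mouse as a block, adjusted p = 0.023 over 9178 genes, lower in 4 of 4 mice), and the means were 115 ± 62.4 and 157 ± 67.5 CPM (SD, n = 4). Pax8 had 317, 336, 1104 and 77.2 CPM in Havcr1-detected cells, against 179, 253, 547 and 45.0 CPM in Havcr1-undetected cells (log2 0.63, SE 0.17, adjusted p = 0.040, higher in 4 of 4 mice). These were 2 of the 4 members with enough UMIs to test, where 2.83% of all genes tested were called (75 higher and 185 lower). The spread between mice was larger than either difference, so both calls rest on the comparison within mice.

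Pax2 and Tfcp2l1 were not called. Pax2 had 71.6, 78.0, 27.6 and 7.72 CPM in Havcr1-detected cells, against 105, 86.7, 27.8 and 37.9 CPM in Havcr1-undetected cells (log2 -0.54, adjusted p = 0.20). Tfcp2l1 had 196, 273, 97.4 and 139 CPM, against 260, 350, 93.9 and 183 CPM (log2 -0.41, adjusted p = 0.18). Foxi1, Tfap2b, Gata3 and Pou3f3 had too few UMIs in proximal tubule cells to be tested. They had 54, 5, 5 and 13 UMIs in Havcr1-detected cells over the 4 mice, against 4, 17, 18 and 19 in Havcr1-undetected cells, and the Foxi1 UMIs are mostly those of the 3 cells of mouse 3 described above. The share of cells with a Hnf4a UMI was 41.9% in Havcr1-detected and 35.8% in Havcr1-undetected cells as deposited, but 11.4% and 14.7% after thinning to 1000 UMIs. For Pax8 the shares were 60.7% and 33.8%, or 27.5% and 18.9% thinned.

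**Figure D4:**
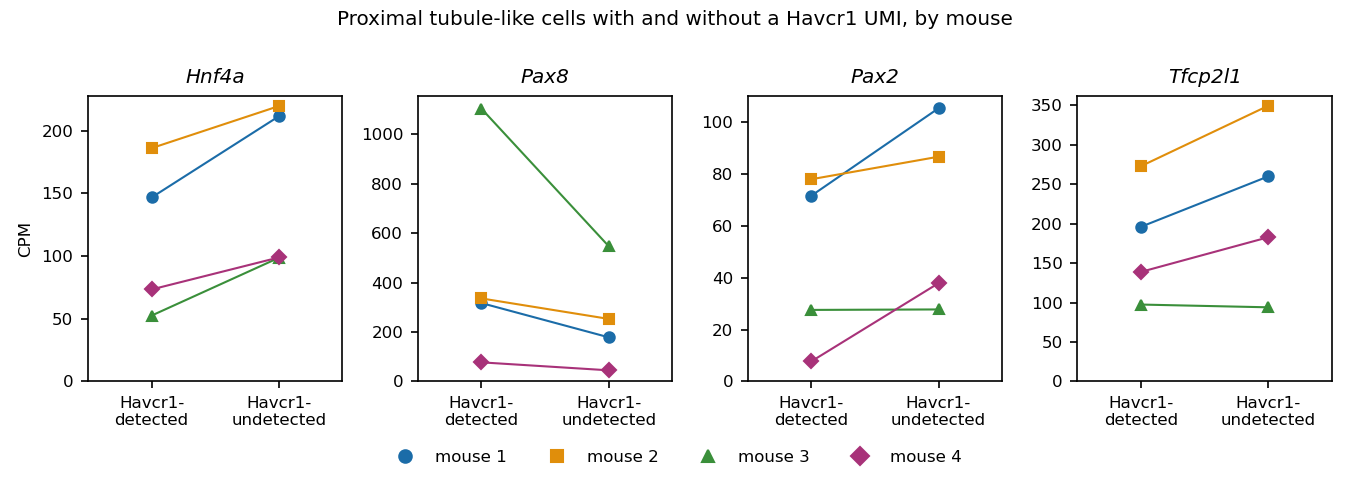
Levels (CPM) of Hnf4a, Pax8, Pax2 and Tfcp2l1 in proximal tubule cells with (left) and without (right) a detected Havcr1 UMI; each line joins the 2 states of 1 mouse. Hnf4a is lower on the left in all 4 mice (147, 186, 52.5 and 73.3 CPM) and Pax8 higher on the left in all 4.

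Neither call was firm. Hnf4a lost its call without mouse 1 (log2 -0.68, adjusted p = 0.17) or mouse 3 (log2 -0.56, adjusted p = 0.14), and Pax8 lost it without any 1 of the 4 mice (adjusted p = 0.067 to 0.22). Both lost it in thinned cells (log2 -0.67, adjusted p = 0.60 for Hnf4a; log2 0.69, adjusted p = 0.42 for Pax8), where the states were set on the thinned UMIs and the Havcr1-detected cells of mouse 2, 13 in number, were too few to use, and without the mouse as a block (adjusted p = 1.00 for each). Counting the capsule epithelium as proximal tubule ended both calls (log2 -0.05 for Hnf4a and 0.15 for Pax8), and that setting called Pax2 lower (log2 -1.06, adjusted p = 0.0080). Several marker sums moved with the states. Markers of the early proximal tubule (12 of 12 with a UMI in each mouse and state) summed to 2638, 2346, 3715 and 3422 CPM in Havcr1-detected cells, against 4197, 3491, 4285 and 3477 CPM in Havcr1-undetected cells. The 5 capsule epithelium markers (3 to 5 with a UMI) summed to 247, 186, 1192 and 166 CPM, against 92.1, 93.7, 1094 and 57.2 CPM. Malat1, an RNA held in the nucleus, had 69058, 101085, 47496 and 115479 CPM, against 49813, 60983, 33240 and 75354 CPM. Their part in the Hnf4a and Pax8 differences was not tested.

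Within single clusters the 2 differences did not always hold. Hnf4a was lower in Havcr1-detected cells in cluster 9 of mouse 1 (140 against 235 CPM), clusters 2 and 17 of mouse 3 (67.4 against 119 CPM and 33.4 against 50.7 CPM) and cluster 6 of mouse 4 (65.1 against 124 CPM). It was not lower in cluster 9 of mouse 2 (190 against 165 CPM) or cluster 0 of mouse 4 (85.3 against 84.4 CPM). Pax8 was higher in Havcr1-detected cells in cluster 9 of mouse 1 (403 against 293 CPM), clusters 2 and 17 of mouse 3 (743 against 461 CPM and 1566 against 737 CPM) and cluster 6 of mouse 4 (124 against 99.4 CPM), but not in cluster 9 of mouse 2 (387 against 402 CPM) or cluster 0 of mouse 4 (9.48 against 14.1 CPM). Among the other nephron factors, 14 of 29 could be tested between the states and 2 were called, Maf lower (log2 -0.94, SE 0.17, adjusted p = 0.0028) and Irx3 higher (log2 0.86, SE 0.22, adjusted p = 0.032), with a median log2 of -0.20 over the 14. Of all genes tested between the states, 2.83% were called.

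Clusters of the proximal tubule and the thick ascending limb fell into 2 kinds by Malat1, and the members differed between them. Clusters under 20000 CPM of Malat1, a limit chosen after the data were seen, are called Malat1-poor and the others Malat1-rich. In the proximal tubule Malat1-poor cells numbered 178, 83, 517 and 837 in mice 1 to 4, against 191, 89, 228 and 359 Malat1-rich cells, and their median depths were 3065, 3016, 2756 and 1474 UMIs against 4665, 7111, 5904 and 2821 UMIs. Pax2 had 14.3, 11.2, 12.3 and 7.68 CPM in Malat1-poor cells, against 148, 122, 53.5 and 79.8 CPM in Malat1-rich cells, a ratio of 0.092 to 0.23. Pax8 had 41.7, 55.8, 590 and 13.7 CPM, against 326, 395, 1237 and 103 CPM (ratio 0.128 to 0.477). Both genes were lower in the Malat1-poor cells of all 4 mice. Proximal tubule clusters 0 and 6 were nearly all of mouse 4 and clusters 2 and 17 of mouse 3, while clusters 9 and 11 were mostly of mice 1 and 2. Over these clusters Pax8 ran between 13.8 CPM (cluster 0 of mouse 4) and 1237 CPM (cluster 17 of mouse 3). Hnf4a went both ways between the kinds, at 182, 274, 95.5 and 84.0 CPM in Malat1-poor cells, against 201, 175, 40.7 and 117 CPM in Malat1-rich cells (ratio 0.718 to 2.35). Tfcp2l1 also went both ways (ratio 0.39 to 1.39).

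In the thick ascending limb the Malat1-poor cells were lower in all 5 members that the segment holds. Pax2 had 16.9, 15.6, 31.1 and 6.44 CPM in Malat1-poor cells, against 215, 196, 117 and 55.0 CPM in Malat1-rich cells. Tfap2b had 224, 225, 68.0 and 53.7 CPM, against 430, 445, 118 and 138 CPM (ratio 0.388 to 0.576), and Tfcp2l1 and Pax8 had ratios of 0.351 to 0.547 and 0.329 to 0.566. Pou3f3 had 165, 122, 41.5 and 27.9 CPM, against 185, 179, 71.5 and 82.0 CPM (ratio 0.34 to 0.895). The split was defined on these cells, so no test is given, and whether nuclear RNA content sets the difference was not tested. With the Malat1-poor clusters left out, Hnf4a and Pax8 were no longer called between the Havcr1 states (log2 -0.51, adjusted p = 0.47, and 0.46, adjusted p = 0.54), while in the segment comparisons Pax2 in the thin limb (adjusted p = 0.070) and Tfcp2l1 in the connecting tubule and principal cells (adjusted p = 0.057) lost their calls. That setting also left mouse 2 with 19 connecting tubule and principal cells, too few to use, and leaving out mouse 2 alone ended both calls too.

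**Figure D5:**
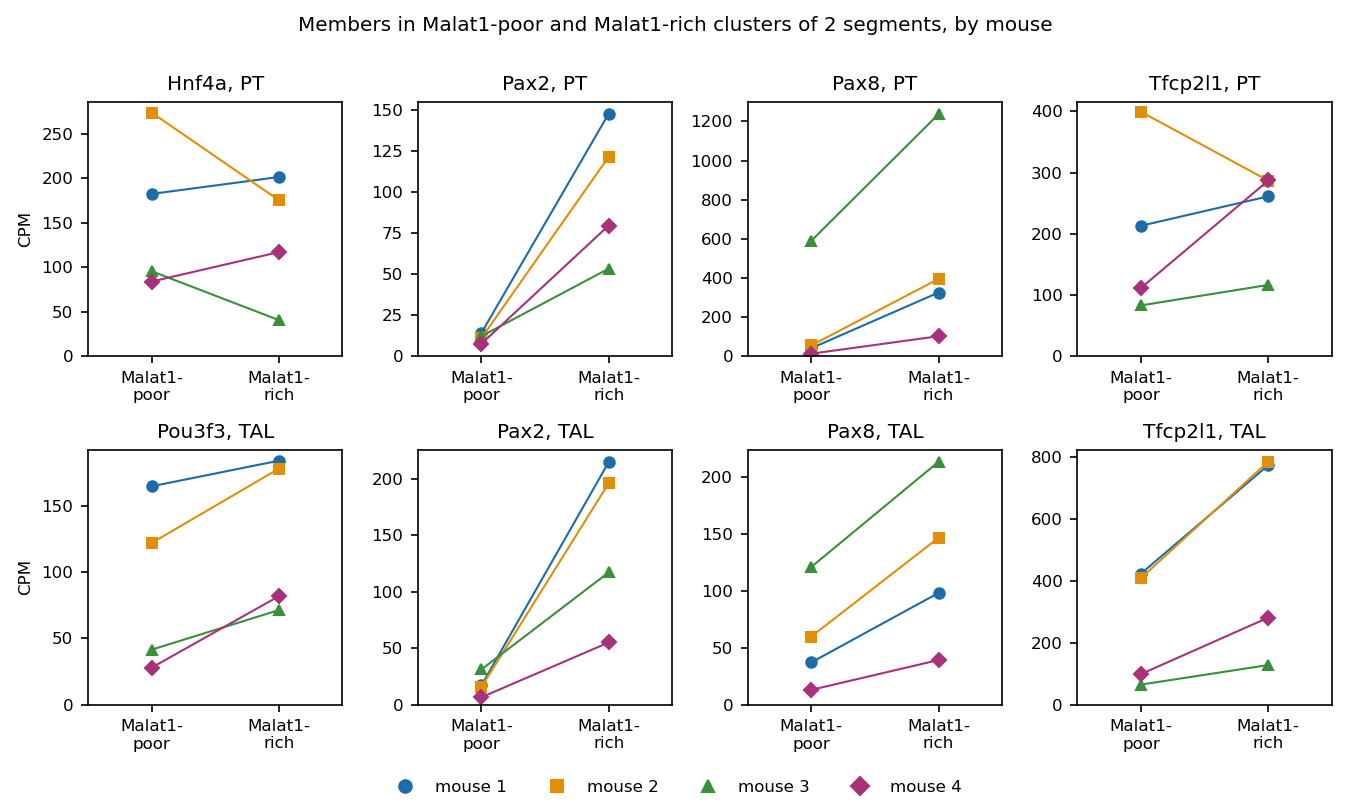
Levels (CPM) of members in Malat1-poor (left) and Malat1-rich (right) clusters of the proximal tubule (upper row) and the thick ascending limb (lower row); each line joins the 2 kinds of cluster of 1 mouse. Pax2 and Pax8 are lower on the left in every mouse and both segments, while Hnf4a goes both ways in the proximal tubule.

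Subtypes of the collecting system could be described in 2 or 3 mice only. Cells of the cluster named connecting tubule numbered 28, 31 and 109 in mice 1, 3 and 4, and principal cells 45 and 709 in mice 1 and 4. In mice 1 and 4 median depths were 3804.5 and 1494 UMIs in connecting tubule cells, against 17014 and 7120 UMIs in principal cells. Gata3 had 302 and 137 CPM in the principal cells of mice 1 and 4, against 99.985 and 33.0 CPM in their connecting tubule cells. Pax2 had 206 and 91.2 CPM, against 13.3 and 28.3 CPM on 2 and 6 UMIs. Pax8 had 164 and 70.9 CPM, against 6.67 and 14.1 CPM on 1 and 3 UMIs. Tfcp2l1 and Pou3f3 were also higher in the principal cells of both mice. Tfap2b was higher in them in mouse 4 only (166 and 96.1 CPM, against 287 and 56.6 CPM). The connecting tubule cluster was Malat1-poor (4596 CPM), and its part in these values was not tested. Intercalated cells with a UMI of Slc4a1, the exchanger of the acid-secreting type A cell, and none of Slc26a4, the exchanger of the base-secreting type B cell, numbered 44 in mouse 1 and 32 in mouse 4, against 24 and 147 with the reverse, with median depths of 18274 and 7341 UMIs against 11017 and 5851 UMIs. Foxi1 had 646 and 366 CPM in the Slc4a1 cells, against 423 and 246 CPM in the Slc26a4 cells. Pax2 had 203 and 107 CPM, against 120 and 35.7 CPM, and Tfcp2l1 2118 and 978 CPM, against 1363 and 556 CPM. All 3 genes were higher in the Slc4a1 than in the Slc26a4 cells of both mice, which is a description of 2 animals without a test. So was Pax8, at 208 and 84.8 CPM, against 139 and 38.9 CPM. Gata3 (193 and 75.9 CPM, against 112 and 65.2 CPM) and Pou3f3 (136 and 53.6 CPM, against 85.7 and 48.4 CPM) went the same way. Tfap2b was higher in mouse 4 only (8.63 and 17.9 CPM, against 29.5 and 12.6 CPM). Cells with neither exchanger, 26 in mouse 1, 26 in mouse 3 and 191 in mouse 4, had 481, 1561 and 456 CPM of Foxi1, in mouse 4 above the Slc4a1 cells.

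A cluster left unnamed among the nephron cells, led by Ptgfr, the receptor of prostaglandin F2 alpha, held distal members in mice 1 and 2, which gave 143 and 72 of its cells. It had 156 and 135 CPM of Tfap2b, 739 and 489 CPM of Tfcp2l1, 177 and 130 CPM of Pou3f3, 82.5 and 65.1 CPM of Gata3 and 111 and 126 CPM of Foxi1. The finer clustering named 22 and 12 of these cells intercalated, and they held all 63 and all 27 of its Foxi1 UMIs. The 121 and 60 cells that stayed unnamed in mice 1 and 2 had no Foxi1 UMI, which allows up to 6.51 and 16.3 CPM. These had 189 and 158 CPM of Tfap2b, 178 and 152 CPM of Pou3f3, 380 and 304 CPM of Tfcp2l1 and 58.6 and 54.4 CPM of Gata3. The whole cluster was Malat1-poor (3802 CPM).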

How the data were processed

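Fresh kidneys of 4 wild-type mice with contrast-induced acute kidney injury were dissociated and their polyadenylated RNA was profiled in droplets, 1 library per mouse. The deposited matrices hold raw UMI counts per gene and cell barcode that the authors made with Cell Ranger 9.0.1, per the file headers; the submitters' processing notes also name Seurat 4.1.1, with no step given. The genome build, the annotation and the strand of counting are not given in the sources used here.

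Barcodes with at least 500 UMIs, 300 genes and at most 50% mitochondrial UMIs were kept. Scrublet (scanpy 1.11.5) removed 1.25% of cells in mouse 2 but 0 to 0.008% in the others, where it is taken not to have worked. Cells were clustered (Leiden, leidenalg 0.10.2, resolution 1, 2000 variable genes, 30 components, 15 neighbours) without the members, the other listed transcription factors, Havcr1, mitochondrial or ribosomal genes. Clusters were named where at least 3 markers were detected in 20% of cells and at 2-fold or more. UMIs were summed per mouse and class or state (at least 20 cells) and tested with edgeR 4.0.16 (TMM, filterByExpr, quasi-likelihood, the mouse as a block, Benjamini-Hochberg over all genes tested). The block pairs sums of 1 library; each mouse gave a sum for every segment except mouse 3 for the distal convoluted tubule. Alternatives were DESeq2 1.42.0, other filters, thinning, clustering and leaving out each mouse.

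Depth was 36831995 to 105436725 UMIs per library, and libraries were no duplicates of each other (chi-square over degrees of freedom 102 to 1252). Intervals on ratios are exact 95% intervals, and the limit given for a count of 0 is 3 UMIs; both cover counting error only. The members and lists were chosen with earlier results of these data known. All 8 members are described across the segments and between the Havcr1 states, while pairs of segments, Malat1 kinds and subtypes name only some. Of the other factors, those named are at most 4 per comparison, with the largest absolute log2 fold change among those called. For each member the 3 genes with the highest Pearson correlation are named. Promoters are RefSeq entries of GRCm38.p6, matched by symbol. The fit was also run on simulated data, but its outcome is not given here and lends no weight to the calls.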

Additional observations from a re-analysis of the deposited data

Results flagged for a closer look

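Of 40 sets of 4 mice, each 1 member in 1 nephron class with at least 20 UMIs, 4 held a mouse far from the other 3, and in each case it was mouse 3. Chance alone marks about 1 set in 20. Foxi1 in the proximal tubule of mouse 3 was 12.2 CPM, against 0 to 1.02 CPM in the others, and most of its UMIs lay in 3 cells. Foxi1 in its intercalated cells was 1496 CPM, against 363 to 553 CPM, in 36 cells. Tfap2b in the same 36 cells was 3.91 CPM, against 17.1 to 19.2 CPM. Pax8 in its podocytes was 42.2 CPM, against 14.4 to 18.1 CPM. Podocytes of mouse 3 numbered 345, against 44 to 73 in the others.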

How the results depend on the processing

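No called result changed sign under any alternative run; Gata3 in the thin limb, not called with all cells and mice, was called higher under 3 of them (highest doublet scores removed, no filter on low counts, without mouse 3) and lower under 1. Of 29 segment calls of members, 18 were kept in every alternative, and of the 2 calls between Havcr1 states none was. Genes called numbered 5610, 3873, 2968, 2935, 2880 and 3262 in the proximal tubule, thin limb, thick ascending limb, distal convoluted tubule, connecting tubule and principal cells, and intercalated cells. In thinned cells they numbered 1806, 854, 996, 951, 625 and 733, and with no replicate block 3275, 1685, 1065, 1071, 1201 and 1444. Leaving out each mouse in turn gave 4185 to 5674, 2457 to 4123, 1800 to 3324, 1436 to 3539, 1702 to 3050 and 2040 to 3456. Between states 260 genes were called, against 93 thinned, 1 with no replicate block, 172 by DESeq2, 435 with no filter on low counts, 1011 with the capsule counted, 68 without Malat1-poor clusters and 61 to 282 leaving out each mouse. Members called ranged over mice left out from 6 to 7, 3 to 7, 4 to 5, 3 to 6, 4 to 6 and 4 to 5 in the same order of segments, and from 0 to 1 between states. In the thin limb 5 members were called, but 2 thinned and 3 with no replicate block, and in the connecting tubule and principal cells 5 but 3 with no replicate block. Between states the 2 called members became 0 thinned, 0 with no replicate block, 1 at the 20% mitochondrial limit, 1 with the capsule counted and 0 without Malat1-poor clusters. With no filter on low counts 2 members were called, but 1 of the 2 calls of the main fit was lost there too. Over the 15 segment pairs 68 combinations of member and pair were called, 42 with no replicate block and 56 to 83 leaving out each mouse.

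Without mouse 3, Gata3 (log2 1.25, adjusted p = 0.00039) and Pou3f3 (log2 0.58) were called higher in the thin limb; without its Slc14a2-led cells Gata3 was called lower (log2 -2.80, adjusted p = 0.00081). The block, the cells of 1 mouse, is part of the design, and a call lost without it says nothing of its size. Thinning and leaving out Malat1-poor clusters each also dropped the connecting tubule and principal cells of mouse 2 (19 cells). The settings on Malat1, the capsule and the thin limb were chosen after seeing the data. Tests within finer classes were not run, because principal cells reached 20 cells in mice 1 and 4 only and no cluster at resolution 1 was named type B or the straight proximal segment (at resolution 2 such clusters had 170 of 175 cells in mouse 4 and all 395 in mouse 3); no cluster was named injured proximal tubule either. Thin limb and distal convoluted tubule rest on 243 and 234 cells, and low members there could not be told from 0 at this depth. The cause of each lost call was not tested.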
